A study of Canis lupus familiaris with 20 samples.

Results

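ATF3, GADD45B, FOS and MYC are genes that cells switch on quickly after a stimulus or a stress, and their probes were followed in dog muscle across 3 disease states. They were taken as every probe that the array files name ATF3, GADD45B, FOS or MYC, which gave 4 genes of 10192 with a symbol on the array and 6 of 42034 probes, 2 each for ATF3 and FOS and 1 each for GADD45B and MYC. All 6 passed the filter on low signal and were among the 16008 probes tested. The study measured total RNA from muscle of 10 dogs aged 2 years on 2-colour Agilent canine arrays. There were 4 normal dogs, 4 dogs labelled as affected by Duchenne muscular dystrophy (DMD), a disease caused by loss of dystrophin, and 2 dystrophic dogs labelled escapers, a name used for dystrophic dogs with a mild course. Every dog was hybridised on 2 arrays with opposite dyes against the same reference, RNA from muscle of 1 normal individual, and a dog's value is the mean log2 ratio of dog over reference on its 2 arrays. The labels name neither the muscle, the breed, the mutation nor how the tissue was taken and stored, and no dog received a treatment that they mention. In such bulk samples fewer cells of a type and less RNA per cell cannot be told apart.

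Immediate early genes are transcribed within minutes of a signal from existing transcription factors, with no new protein needed, and most of their messages are short-lived. FOS pairs with JUN proteins to form the AP-1 transcription factor, ATF3 is a stress-induced member of the ATF/CREB family that can pair with the same partners, and MYC is a transcription factor that drives growth and ribosome production. GADD45B is a small protein induced by stress and cytokines that acts on the p38 and JNK kinase pathway, and exercise, injury and the handling of a biopsy are all known to induce genes of this kind in muscle.

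Each ratio rests on a probe of 60 bases, and the coordinates given here are those of the array files, whose genome build is not named in the sources used here. ATF3 probe 1 lies at chr7:13753767-13753826 and ATF3 probe 2 at chr7:13753650-13753709, both on the plus strand of the same transcript. FOS probe 1 lies at chr8:51372291-51372350 and FOS probe 2 at chr8:51371586-51371645, both on the plus strand. GADD45B is read at chr20:59769316-59769375 on the minus strand and MYC at chr13:28242482-28242541 on the plus strand. The files do not say whether a probe lies in an exon or a UTR. The 4 probes with at least 1 reading frame free of stop codons are printed as the files give them, 5′ to 3′, because the levels of GADD45B and MYC rest on a single probe and ATF3 and FOS need a second probe as a check on the first.
ATF3 probe 2: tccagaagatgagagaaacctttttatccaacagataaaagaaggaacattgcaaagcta
GADD45B: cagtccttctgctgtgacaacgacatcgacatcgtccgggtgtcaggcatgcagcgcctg
FOS probe 2: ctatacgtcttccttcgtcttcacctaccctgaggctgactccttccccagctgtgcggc
MYC: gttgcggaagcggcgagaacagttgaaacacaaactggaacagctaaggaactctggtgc
The longest run of bases that any of the 6 probes shared with a probe of another gene or an unnamed probe on the array was 13 to 16 bases. The 2 ATF3 probes start 117 bases apart and the 2 FOS probes 705 bases apart. Across the 10 dogs the 2 probes of a gene gave the same order closely, with r = 0.988 for ATF3 and r = 0.959 for FOS as a description. The probe with the higher mean intensity, probe 1 of each, stands for the gene below.

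On 19 of the 20 arrays, 30.5% to 43.6% of probes gave a dog signal well above background, with a median signal over background of 1.67 to 2.70. The array with affected 4 in Cy5 stood apart, at 60.2% and 5.28, and this dog's 2 arrays agreed least, at r = 0.627, against r = 0.722 to 0.939 for the other dogs. All 15 skeletal muscle fibre markers named on the array were above background on all 20 arrays. This shows detection and not the amount of muscle in a sample. Over the 13 tested, the mean log2 ratio was lowest in affected 1 (−1.57) and escaper 2 (−1.53). Affected 1 stood apart from the other dogs: its highest correlation with any of them was r = −0.01, whereas every other dog reached at least r = 0.422 with another. Escaper 2 correlated with the normal dogs at r down to −0.238. Values without affected 1 or escaper 2 are therefore also given for the members, the genes most like them and the gene lists where they moved. Each slide held 2 dogs of 1 group, so slide and group cannot be told apart for the escapers, and normal and affected dogs were spread over 2 slides each. The 10 dogs are separate animals, but no slide held dogs of different groups. A group difference can therefore hold differences between slides, and the p-values, taken over dogs, do not separate the spread between animals from that between slides.

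Over all 10 dogs the members were among the most variable transcripts of this muscle, and for each of them the 2 escapers lay far apart. From the lowest to the highest dog, MYC ranged over 28.1-fold, GADD45B over 22.3-fold and ATF3 over 20.2-fold, or 10.7-fold on its second probe. FOS ranged over at least 64.6-fold on its first probe, whose spot was saturated on both arrays of escaper 2, and over 14.8-fold on its second. Without escaper 2 the range was 5.36-fold for MYC, 16.7-fold and 5.14-fold for the FOS probes, 18.6-fold for GADD45B and still 20.2-fold for ATF3. Without affected 1 as well, it was 2.36-fold for GADD45B. The standard deviation over the 10 dogs was 1.85 for FOS, 1.67 for GADD45B, 1.51 for ATF3 and 1.41 for MYC on the log2 scale, against a median of 0.318 over all tested probes. Depending on the probe, 97.8% to 99.8% of tested probes varied less over all dogs. Within a group the rank could be much lower. Among affected dogs 76.3% and 33.2% of tested probes varied less than the ATF3 probes, and among normal dogs 74.7% varied less than GADD45B, while the same shares were 99.9% or more for ATF3 among normal dogs and 99.2% for GADD45B among affected dogs. For FOS and MYC they were 91.1% to 99.8% in either group. Over all 10 dogs the range exceeded the differences between arrays, as the 2 arrays of a dog differed by a median of 0.191 (FOS probe 1) to 0.583 (ATF3 probe 2) and by at most 1.25. Within the narrowest groups it did not. GADD45B spanned 0.527 in normal dogs, beside a median array difference of 0.533. ATF3 probe 2 spanned 0.52 in affected dogs, beside 0.583. These array differences hold an offset between the dyes, with a mean Cy5 minus Cy3 of 0.43 for GADD45B and −0.578 for ATF3 probe 2. An offset shared by the dogs cancels in the mean of a dog's 2 arrays. The array differences are therefore no measure of the error of a dog's value.

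**Figure D1:**
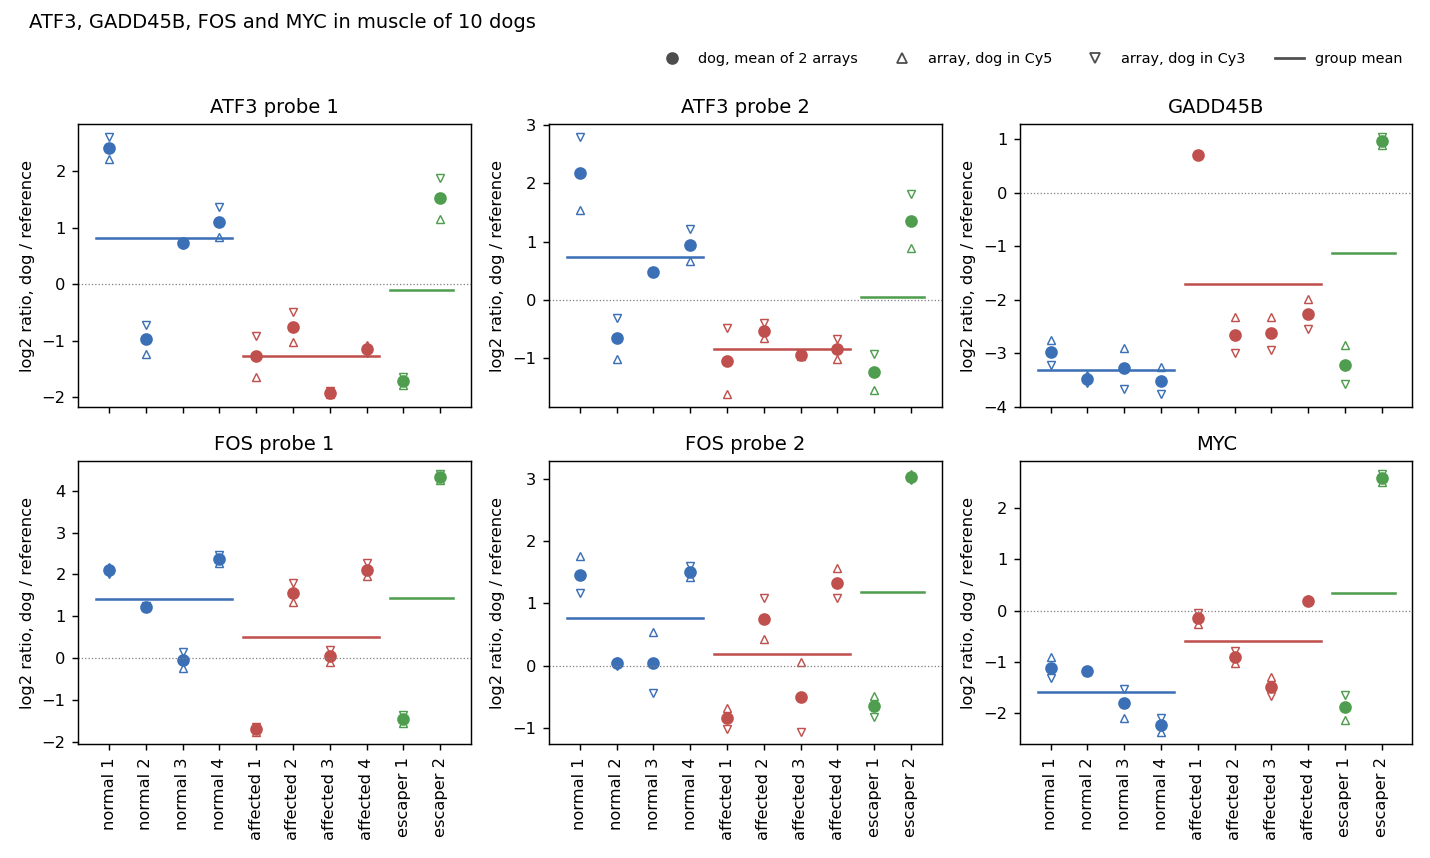
Log2 ratio of dog over reference for the 6 probes in each of the 10 dogs; filled circles are the mean of 2 arrays, open triangles the single arrays, bars the group means, and the dotted line at 0 is the reference individual. Escaper 2 is the highest dog for GADD45B, FOS and MYC, and normal 2 is the 1 normal dog that lies within the range of the affected dogs for ATF3.

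ATF3, the stress-induced repressor and activator of the ATF family, was at log2 ratios of 2.41, −0.98, 0.73 and 1.10 in normal dogs 1 to 4. In affected dogs 1 to 4 it was at −1.28, −0.76, −1.93 and −1.15. Escaper 1 was at −1.72 and escaper 2 at 1.52. Thus 3 of 4 normal dogs and escaper 2 were above the reference, and all 4 affected dogs, escaper 1 and normal 2 were below it. The second probe gave 2.17, −0.66, 0.48 and 0.94 in the normal dogs, −1.05, −0.53, −0.94 and −0.84 in the affected dogs, and −1.24 and 1.35 in the escapers. The dog's signal exceeded background on 18 of 20 arrays, and this probe put the same dogs above and below the reference.

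Affected dogs averaged 4.27-fold lower than normal dogs in ATF3, a log2 difference of −2.10 (SE 0.79, 95% interval −3.85 to −0.34, n = 4 and 4). The second probe gave −1.57 (SE 0.63, 95% interval −2.99 to −0.15). Neither passed after adjustment over all tested probes, with limma adjusted p = 0.344 and 0.371. In that comparison 3 of 16008 probes, or 0.0187%, passed at an adjusted p of 0.05, and none of the 6 member probes did. The 2 groups overlapped through 1 dog, normal 2. The exact permutation test, two-sided and with 70 arrangements of the dogs, gave p = 0.0571 for either probe, adjusted p = 0.229 over the 12 such tests made, where the smallest p it can give is 0.0286. Those of 2 dogs against 4 cannot go below 0.133, so no adjusted p over the 12 could fall under 0.05. Without normal 1, the highest dog, the difference was −1.56, and without normal 2 it was −2.69, with no call in either case.

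GADD45B, the stress-induced protein that acts on the p38 and JNK pathway, was far below the reference in most dogs. The normal dogs were at −2.98, −3.48, −3.28 and −3.51, a narrow range. The affected dogs were at 0.71, −2.66, −2.63 and −2.27, and the escapers at −3.21 and 0.97. Affected 1 and escaper 2 were the 2 dogs above the reference, and escaper 1 lay among the normal dogs. The normal mean was 9.93-fold below the reference, and only 0.0875% of tested probes had a lower normal mean. The reference is itself muscle RNA of a normal individual, and it stood above all 4 normal dogs in GADD45B, as it did for 5115 tested probes (32%).

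All 4 affected dogs were higher than all 4 normal dogs in GADD45B, a separation that 5.28% of tested probes showed in that direction. The mean difference was 1.60 on the log2 scale, or 3.03-fold (SE 0.94, 95% interval −0.50 to 3.70), and it did not pass (limma adjusted p = 0.512). The exact permutation test gave p = 0.0286, the smallest it can give with 4 dogs against 4, and adjusted p = 0.229 over the 12 tests. That adjusted value could not have fallen under 0.05 whatever the levels of the dogs. Affected 1 carried much of the difference, which was 0.79 (adjusted p = 0.684 in limma) without it. The groups were apart in either dye, with the highest normal dog at −2.75 and the lowest affected dog at −2.32 in Cy5, and at −3.21 and −2.99 in Cy3. The reference individual, at 0 by construction, lies above 3 of the 4 affected dogs.

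FOS, the AP-1 subunit, had overlapping groups. Normal dogs were at 2.10, 1.23, −0.03 and 2.37, and affected dogs at −1.69, 1.57, 0.05 and 2.12. Escaper 1 was at −1.44 and escaper 2 at 4.32, so the escapers took nearly the lowest and the highest place of the 10 dogs. The spot was saturated on both arrays of escaper 2, which makes its ratio there a lower bound, while the unsaturated second probe also put escaper 2 highest, at 3.04. On that probe the normal dogs were at 1.46, 0.04, 0.05 and 1.51, the affected dogs at −0.85, 0.76, −0.50 and 1.33, and escaper 1 at −0.65. The affected mean was lower than the normal mean by −0.90 on the log2 scale (SE 1.22, 95% interval −3.64 to 1.84, limma adjusted p = 0.775), and by −0.58 (SE 0.79, adjusted p = 0.776) on the second probe. Without affected 1, the lowest dog, the difference was −0.17. The intervals allow a change of several fold either way.

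MYC, the growth-promoting transcription factor, was at −1.11, −1.19, −1.81 and −2.23 in normal dogs and at −0.15, −0.91, −1.48 and 0.19 in affected dogs. Escaper 1 was at −1.88 and escaper 2 at 2.58. All 4 normal dogs were below the reference, by 3-fold on average, as they were for 32% of tested probes. Affected 3 was the affected dog that fell within the normal range. The affected mean was 1.99-fold higher, a log2 difference of 0.99 (SE 0.81, 95% interval −0.82 to 2.81), which did not pass (limma adjusted p = 0.632). Affected dogs were higher in 14 of 16 pairs of an affected and a normal dog, and the exact permutation test gave p = 0.114, adjusted p = 0.343. Affected 4, the highest affected dog, is the one whose Cy5 array stood apart: the difference was 0.73 without this dog and 0.95 over the Cy3 arrays alone.

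The 2 escapers differed from each other more than the group means did. Escaper 2 exceeded escaper 1 by 4.46 log2 units in MYC, 4.19 in GADD45B and 3.24 in ATF3. In FOS the difference was at least 5.76 on the saturated first probe and 3.69 on the second. Against the normal dogs the escaper mean was higher by 2.19 in GADD45B (SE 1.15, 95% interval −0.38 to 4.76, limma adjusted p = 0.325) and by 1.93 in MYC (SE 0.99, 95% interval −0.29 to 4.15, adjusted p = 0.317). The difference was −0.91 in ATF3 (SE 0.96, limma adjusted p = 0.634) and 0.02 in FOS (SE 1.499, adjusted p = 0.995), where the second probe gave 0.42 (SE 0.97, adjusted p = 0.843). In that comparison 0 of all tested probes, 0%, passed the adjusted threshold, while 2953 had an unadjusted p under 0.05, and no member probe was among either. The exact permutation test over 15 arrangements cannot go below p = 0.133 for 2 dogs against 4, and gave p = 0.267 for GADD45B and p = 0.533 for MYC.

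Against the affected dogs, the escaper mean was higher for every member. The log2 difference was 1.18 for ATF3 (SE 0.96), 0.59 for GADD45B (SE 1.15), 0.93 for FOS (SE 1.499), or 1.01 on the unsaturated second probe (SE 0.97), and 0.94 for MYC (SE 0.99). The limma adjusted p lay between 0.816 and 0.923 for the 6 probes, and 0 of 16008 probes, 0%, passed, with 835 at an unadjusted p under 0.05. All 4 differences changed sign without escaper 2, and were then −0.44 for ATF3, −1.503 for GADD45B, −1.95 for FOS and −1.29 for MYC. With escaper 2 as the only escaper, MYC was higher by 4.16 than in normal dogs (adjusted p = 0.00285) and by 3.17 than in affected dogs (adjusted p = 0.017), and GADD45B by 4.28 than in normal dogs (adjusted p = 0.0207). In those limma fits the spread of the lone dog is taken from the other 2 groups, and 3920 and 1755 of all tested probes passed, so they describe how far escaper 2 lay from the other dogs.

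**Figure D2:**
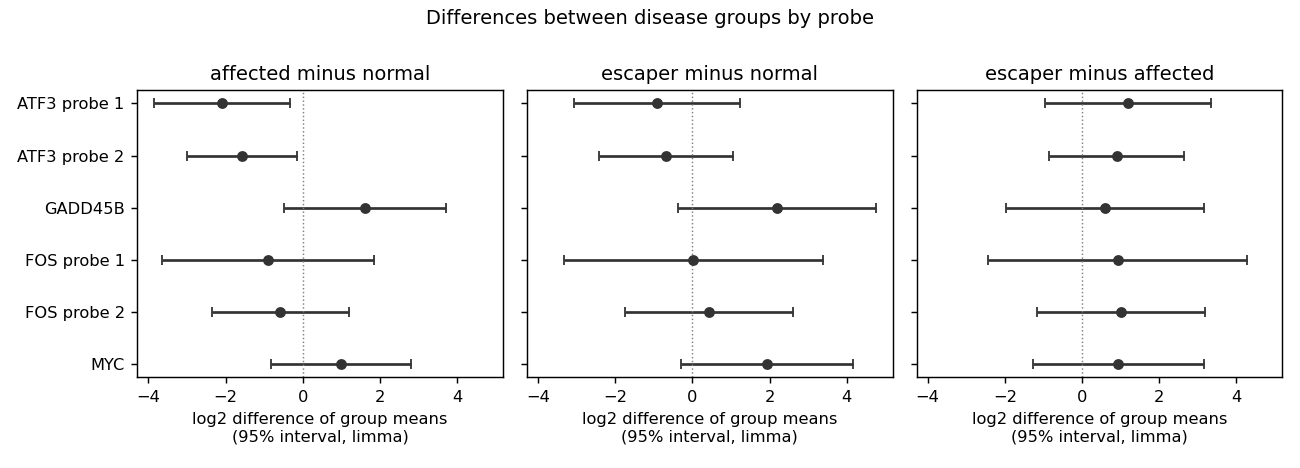
Log2 differences between group means with 95% intervals from limma for the 6 probes in the 3 comparisons, over 4 normal, 4 affected and 2 escaper dogs. The intervals of both ATF3 probes in affected minus normal end below 0 before adjustment over all probes, and all other intervals include 0.

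**Figure D3:**
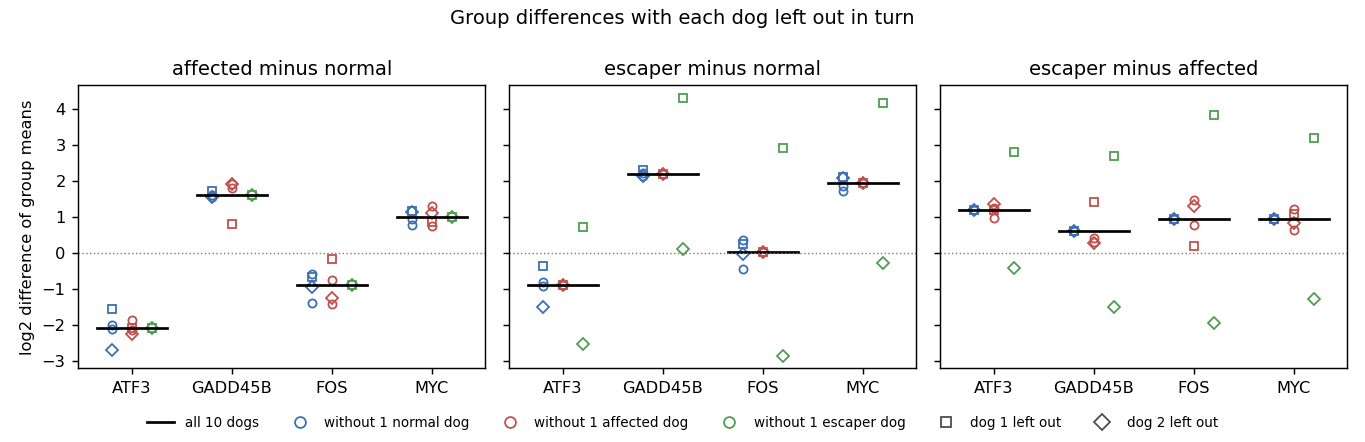
Log2 difference of group means for ATF3, GADD45B, FOS and MYC with all 10 dogs (black bars) and with each dog left out in turn (open symbols, coloured by the group of the dog left out; squares mark dog 1 and diamonds dog 2). In affected minus normal every symbol stays on the side of its bar, while leaving out 1 escaper moves the escaper differences across 0 for ATF3, FOS and MYC against normal dogs and for all 4 genes against affected dogs.

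Of the 6 pairs of members, GADD45B and MYC varied together across the 10 dogs (Pearson r = 0.837, permutation p = 0.00393; Spearman rho = 0.842, permutation p = 0.00407; Benjamini-Hochberg adjusted p = 0.0244 for each over the 12 values of 6 pairs). These permutations shuffled all 10 dogs without regard to group or slide. Differences that 2 genes share between groups or slides therefore enter the p-values, which are not evidence of covariation within groups. Without affected 1 and escaper 2, the dogs farthest from the median GADD45B level, r was 0.786, and over the 6 dystrophic dogs alone it was 0.797. ATF3 and FOS had r = 0.638 and rho = 0.661 (permutation p = 0.0501 and 0.0433, adjusted p = 0.15 for both), and r = 0.454 without normal 1 and escaper 2. The other 4 pairs had r from 0.051 to 0.533, with adjusted permutation p from 0.274 to 0.877. These values moved with escaper 2. Without it r was 0.023 for FOS and MYC, −0.291 for ATF3 and MYC, −0.324 for ATF3 and GADD45B and −0.507 for GADD45B and FOS, whereas it was 0.675 for GADD45B and MYC and 0.541 for ATF3 and FOS. Over the 6 dystrophic dogs alone, which include escaper 2, r was 0.92 for ATF3 and MYC, 0.823 for ATF3 and FOS, 0.78 for FOS and MYC, 0.668 for ATF3 and GADD45B and 0.28 for GADD45B and FOS, as a description. All dogs share 1 reference. Each of the 5 slides holds 2 dogs, and the first dog minus the second was, on slides 1 to 5, 0.50, 0.22, 3.37, −0.36 and −4.19 in GADD45B and 0.07, 0.42, 0.76, −1.68 and −4.46 in MYC. The sign was thus the same on 5 of 5 slides for GADD45B and MYC, as it was for ATF3 and FOS, and on 3 of 5 for each of the other pairs. With 5 differences no correlation within slides is given.

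By likeness over the 10 dogs, the 3 genes whose ratios followed ATF3 most closely were NR4A1 (r = 0.962), COQ10B (r = 0.941) and NR4A2 (r = 0.918), given as a description. NR4A1 and NR4A2 are immediate early genes that encode orphan nuclear receptors. NR4A1 was at 1.48, −0.29, 0.18 and 0.79 in normal dogs, −0.49, −0.11, −0.77 and −0.53 in affected dogs, and −0.21 and 1.07 in the escapers. NR4A1 thus shared with ATF3 the high values of normal 1 and escaper 2. FOS was followed by NME2 (r = 0.942), a nucleoside diphosphate kinase, DUSP1 (r = 0.913), an immediate early phosphatase that switches off MAP kinases, and SPARCL1 (r = 0.907), a matrix protein. DUSP1 was at 0.71, 1.27, 0.68 and 1.23 in normal dogs, −1.12, 0.89, 0.16 and 1.04 in affected dogs, and −0.02 and 2.99 in the escapers. GADD45B was followed by PABPC1, the poly(A) binding protein, with r = 0.991, MFHAS1 with r = 0.989 and PPFIBP2 with r = 0.987, and these had affected 1 and escaper 2 as their highest dogs too. MYC was followed by FGL2 (r = 0.988), CHSY1 (r = 0.986) and TMEM165 (r = 0.974). Over the 8 dogs other than affected 1 and escaper 2, r was 0.803 to 0.898 for the 3 genes of GADD45B, 0.878 to 0.981 for those of MYC, 0.788 to 0.901 for those of FOS and 0.913 to 0.953 for those of ATF3.

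The wider set of related genes was read from lists of pathway genes, and no listed gene passed the adjusted threshold in any of the 3 comparisons. Over all 6113 tested genes with a symbol the median log2 difference was 0.045 in affected minus normal, 0.005 in escaper minus normal and −0.034 in escaper minus affected. Of these genes 3433 were higher in affected than in normal dogs, or 2960 without affected 1. Escapers were higher than normal dogs in 3083 of them and higher than affected dogs in 2812. Among 8 tested AP-1 and ATF partners, 6 were lower in affected dogs with a median of −0.191, and 5 to 6 were lower under 4 other scalings. FOSB, a FOS relative, was at 0.30 to 0.49 in normal dogs and −0.20 to 0.18 in affected dogs with no overlap (difference −0.39, SE 0.20, limma adjusted p = 0.450). MAFK, a small MAF protein, was also lower without overlap (−0.48, SE 0.17, adjusted p = 0.325). Separation in that direction was seen in 7.42% of tested probes and in the higher direction in 5.28%, which applies to the genes named below too. Genes of each list were named for the smallest p in this comparison, so their separation is no independent evidence. ATF1 differed by −0.37 (SE 0.19, adjusted p = 0.446).

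Among 20 other immediate early genes, 11 were lower and 9 higher in affected dogs, with a median of −0.01 beside 0.045 over all genes. Without affected 1, 11 were higher, with a median of 0.033 beside −0.012 over all genes. NR4A2 was lower in affected dogs without overlap, by −1.16 (SE 0.35, limma adjusted p = 0.274), although its probe was above background on 14 of 20 arrays. NR4A1 was lower by −1.01 (SE 0.39, adjusted p = 0.357) with overlap. IER3, an early response gene tied to cell survival, went the other way, higher without overlap by 0.91 (SE 0.42, adjusted p = 0.413). EGR1, the zinc finger factor often measured as the type case of an immediate early gene, was at −1.54, −3.80, −2.96 and −2.51 in normal dogs, −2.29, −2.54, −2.30 and −0.04 in affected dogs, and −4.34 and 2.33 in the escapers. EGR1 was saturated on 2 of 20 arrays, and its values in affected 1 and affected 4 come from 1 array each because the other spot carried an outlier flag. EGR1 and RGS1 were chosen after their values were seen. RGS1, a regulator of G protein signalling in immune cells, was at 4.01 in escaper 2 and at −1.64 to 1.43 in the other 9 dogs, with its probe above background on 12 arrays.

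Escaper 2 had the highest mean over these 20 genes, 1.30, and escaper 1 the lowest, −0.87, with the other 8 dogs between −0.58 and −0.02. Against affected dogs 18 of 20 were higher in the escapers, with a median of 0.58, and 15 to 19 of 20 under the other scalings. Median centring moved the median of all genes in that comparison from −0.034 to −0.213 and gave 15 of 20 with a median of 0.26. Against normal dogs 14 of 20 were higher, with 12 to 16 of 20 under the other scalings. Both counts turned without escaper 2. Escaper 1 alone was higher in 7 of 20 than the affected dogs and in 8 of 20 than the normal dogs, with medians of −0.474 and −0.272. Over all 6113 tested genes escaper 1 was higher in 2648 and 2865, with medians of −0.052 and −0.02. Escaper 2 alone was higher in 17 of 20 than the affected dogs and in 16 of 20 than the normal dogs, with medians of 1.44 and 1.74. Over all tested genes escaper 2 was higher in 2915 and 3115, with medians of −0.035 and 0.021.

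**Figure D4:**
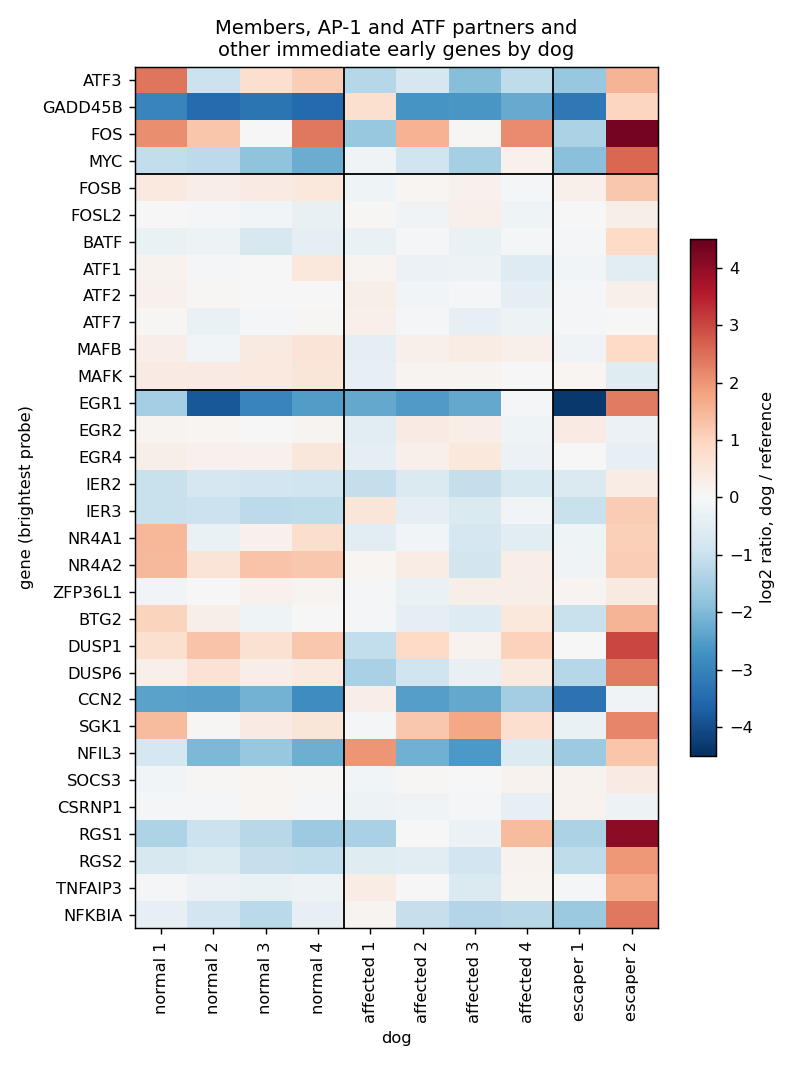
Log2 ratio of dog over reference (colour) for the 4 members, 8 AP-1 and ATF partners and 20 other immediate early genes in 10 dogs, with horizontal lines between the lists and vertical lines between the groups. Escaper 2 is high in most of these genes, EGR1 is below the reference in 9 of 10 dogs, and ATF3, NR4A1 and NR4A2 are higher in normal 1 than in any affected dog.

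MYC dimerises with MAX and drives genes of ribosome production, and of 14 tested MYC targets 12 were higher in affected dogs, with a median of 0.472, and 11 to 13 under the other scalings. FBL, the rRNA methyltransferase fibrillarin, was higher without overlap by 0.41 (SE 0.12, limma adjusted p = 0.260). Such separation was seen in 5.28% of tested probes. NOP2, another nucleolar methyltransferase, was higher without overlap by 0.80 (SE 0.23, adjusted p = 0.265), and PA2G4 by 0.94 (SE 0.39, adjusted p = 0.378), which was 0.48 without affected 1. Without that dog 11 of the 14 were higher, with a median of 0.401. The list mean was −0.86 to −0.71 in normal dogs, −0.61 to 0.27 in affected dogs and −0.56 and −0.24 in the escapers, so the order of dogs was not that of MYC itself: escaper 2, by far the highest in MYC, was second to affected 1. Of 10 network partners 6 were higher in affected dogs, near the share over all tested genes (3433 of 6113). Among them were RUVBL1 (0.63, SE 0.18, limma adjusted p = 0.269) and RUVBL2 (0.47, SE 0.20, adjusted p = 0.388, and 0.27 without affected 1), both subunits of chromatin remodelling complexes. MLX was lower by −0.37 (SE 0.19, limma adjusted p = 0.463).

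Of 14 genes of GADD45 and p53 stress responses, 9 were higher and 5 lower in affected dogs, with a median of 0.067, but 5 were higher and 9 lower, with a median of −0.074, without affected 1. Over all 6113 tested genes 3433 were higher, and 2960 without affected 1. MAP3K4, the kinase that GADD45 proteins bind and activate, was higher in all affected dogs than in any normal dog, at −0.06 to −0.01 against −0.52 to −0.24 (difference 0.31, SE 0.12, limma adjusted p = 0.345). SESN3 was higher by 0.43 (SE 0.17, adjusted p = 0.354), with its probe above background on 9 of 20 arrays, and GADD45GIP1 lower by −0.46 (SE 0.21, adjusted p = 0.399). Among 9 genes of the integrated stress response, the pathway that lowers translation and can induce ATF3, 6 were higher in affected dogs, and 3 without affected 1. NUPR1, a stress-induced nuclear protein, was higher without overlap by 1.64 (SE 0.69, limma adjusted p = 0.382), with its spot saturated on 1 of 20 arrays. HSPA5, the main chaperone of the endoplasmic reticulum, was higher by 1.17 with overlap (SE 0.65, limma adjusted p = 0.487). Both were highest in affected 1, at 2.25 and 1.57, the dog that was also high in GADD45B, and without it the differences were 0.94 for NUPR1 and 0.51 for HSPA5 (adjusted p = 0.434 and 0.636).

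Among 15 hypoxia genes, 9 were higher and 6 lower in affected dogs, the reverse of the counts without affected 1. With that dog included, the share was near that of all tested genes (3433 of 6113 higher). VEGFA, the vascular growth factor, had the smallest p of all listed pathway genes, at 0.44 to 0.94 in normal dogs and −0.33 to 0.07 in affected dogs (difference −0.68, SE 0.15, limma adjusted p = 0.191). PDK1 was higher by 0.59 (SE 0.22, adjusted p = 0.344) with its probe above background on 14 arrays, and CA9 lower by −0.39 (SE 0.19, adjusted p = 0.446). Among 11 heat shock genes, 6 were lower and 5 higher, with a median of −0.025, or 5 lower and 6 higher without affected 1. HSF1 was lower by −0.49 (SE 0.30, limma adjusted p = 0.537), HSPA1L lower by −0.37 (SE 0.26, adjusted p = 0.581) and HSPA4 higher by 0.49 (SE 0.36, adjusted p = 0.599), which was 0.14 without affected 1. Among 13 upstream kinases and factors, 7 were lower and 6 higher. MAP2K1, a kinase upstream of FOS, was higher without overlap by 0.40 (SE 0.15, limma adjusted p = 0.346). CREM differed by −0.19 (SE 0.13, limma adjusted p = 0.579), with its probe above background on 11 arrays. RELA differed by 0.22 (SE 0.17, limma adjusted p = 0.612), or by 0.07 without affected 1. EIF2AK4 differed by −0.21 (SE 0.20, limma adjusted p = 0.669).

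Macrophage, fibroblast and muscle fibre markers stood apart in escaper 2, and muscle fibre markers in affected 1 as well. Escaper 2 had the highest mean log2 ratio of 15 macrophage and myeloid markers, 1.08, against −1.66 to −1.30 in normal dogs, −1.22 to −0.04 in affected dogs and −1.12 in escaper 1. The mean of 13 fibroblast markers was 2.08 in escaper 2, −0.92 to −0.49 in normal dogs, −0.99 to 1.08 in affected dogs and −0.15 in escaper 1. The mean of 13 muscle fibre markers was lowest in affected 1 at −1.57 and escaper 2 at −1.53, with the other 8 dogs at −0.11 to 0.62. These are the 2 dogs with the highest GADD45B. Affected 1 was not high in macrophage markers (−1.22) or fibroblast markers (−0.99). Normal 1, the highest dog in ATF3, did not stand apart, at −1.54 in macrophage, −0.55 in fibroblast and 0.18 in muscle fibre markers.

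Satellite cell and regenerating fibre markers averaged 0.91 in escaper 2 and −1.20 to 0.05 in the other 9 dogs over 5 genes. Endothelial markers averaged 0.92 in escaper 2 and −0.44 to 0.10 in the other dogs over 8 genes. The 4 tested genes each of the T and NK cell, neutrophil and mast cell, and smooth muscle and pericyte lists averaged between −0.84 and 0.23, and 7 adipocyte genes between −0.22 and 0.31. CD8A, TEK and PPARG were never above background. The part of these cell types, and of the time or handling of the biopsies, in the levels of ATF3, GADD45B, FOS and MYC was not tested.

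**Figure D5:**
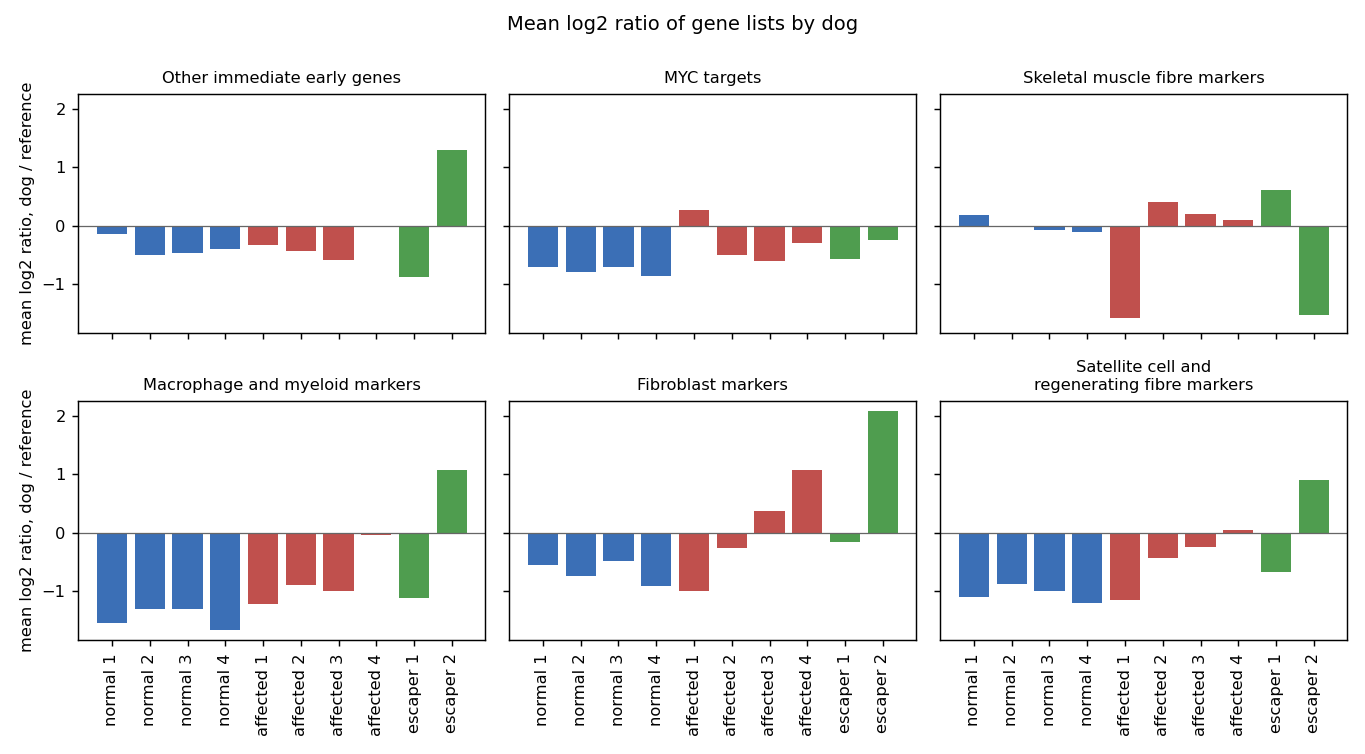
Mean log2 ratio of dog over reference (bars from 0) for 6 gene lists in each of 10 dogs, blue for normal, red for affected and green for escaper dogs. Escaper 2 is highest for immediate early genes, macrophage, fibroblast and regenerating fibre markers, and affected 1 and escaper 2 are lowest for muscle fibre markers.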

How the data were processed

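Total RNA of dog muscle and of a common reference was labelled and hybridised on 2-colour arrays, per the labels' protocols. The scanner files, as deposited, give each spot's mean intensity and median background intensity per channel, quantified with Agilent Feature Extraction 9.5.3.1, and processed intensities that the software had background-corrected, detrended and dye-normalised, per the file headers. A value table deposited beside them has 20 columns, each of which matched the dog to reference log2 ratio of the processed intensities (r = 1), so scale and direction are known, and the column medians lay between −0.165 and 0.247, so it was left uncentred for a reason not given in the sources used here. It served as an alternative.

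Mean signals were corrected with normexp (offset 50, all spots) and loess within each array, with control spots at no weight, in limma 3.58.1 under R 4.3.3. Control spots (1417 of 43451 per array) and outlier-flagged spots were left out, saturated spots kept, ratios turned to dog over reference, and the 2 arrays of a dog averaged, so the dog is the replicate. The number of dogs limits the precision. A probe was kept if at least 2 dogs had it well above background on both of their arrays (16130 probes), and the 16008 with a value in every dog were tested in a single limma fit of 10 dogs in 3 groups, with Benjamini-Hochberg adjustment over those probes and a threshold of 0.05. The fit was tested on simulated data. Symbols came from the array files, updated through RefSeq gene names of assembly UU_Cfam_GSD_1.0, from which no coordinates were taken: 12071 of 42034 probes had a symbol. Of a gene's probes the one with the highest mean intensity stands for it.

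Exact permutation tests of member probes (two-sided, 12 tests) and permutation tests of correlations (100000 permutations) used scipy 1.17.1. Named genes are the members, up to 3 genes of each pathway list with the smallest p in affected minus normal, and for each member the 3 genes with the highest r over dogs. Members, lists, tests and alternatives were chosen with earlier results of these data known. Replicate numbers only name dogs and pair none. Alternatives covered background correction, normalisation, offset, filter, value table, channel, dye, slide and dog blocks, groups in the fit, variance and leaving out each dog. The values of lists, named genes, ranges and most alike genes without affected 1 or escaper 2, and the differences within slides, were added after the data were seen.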

Additional observations from a re-analysis of the deposited data

Results flagged for a closer look

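In groups of 4 dogs, 7 of 86 tests of a gene in a group found 1 dog far from the other 3, measured as its gap to the nearest dog over the range of the group. Chance gives about 1 in 20. Affected 1 was the dog in 5 of them, but the genes were in part chosen for a small p or for following GADD45B, so that count is no independent evidence. In GADD45B it was at 0.71 against −2.66 to −2.27 in the other affected dogs, a gap share of 0.885. In NUPR1 it was at 2.25 against −0.74 to −0.29 (0.848), in PA2G4 at 1.58 against −0.38 to −0.12 (0.867), and in MFHAS1 at 1.13 against −0.32 to −0.14 (0.873). In SESN3 it was the low dog, at −0.23 against 0.28 to 0.36 (0.864). Among normal dogs, normal 1 was low in MLX, at 0.38 against 0.47 to 0.49 (0.871), and normal 4 was high in GADD45GIP1, at 0.59 against 0.20 to 0.22 (0.932). The groups of 2 escapers cannot be tested this way.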

How the results depend on the processing

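Each of the 18 differences (6 probes in 3 comparisons) was recomputed under 12 other settings and without each of the 10 dogs, and the deposited value table gave the same values as the processed signals. In affected minus normal no difference changed direction or call, and the lowest adjusted p for ATF3 was 0.0532, with all arrays and the dog as a random block. Under the other settings, 213 of 216 values kept direction and call. The exceptions were FOS in escaper minus normal, which was −0.52 under median centring, −0.25 in the dog's channel alone and −0.0081 with the dog in Cy5 only, against 0.02. The cause was not tested.

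Leaving out 1 dog gave, in escaper minus normal, −2.53 to 0.71 for ATF3, 0.10 to 4.28 for GADD45B, −2.86 to 2.91 for FOS and −0.30 to 4.16 for MYC. In escaper minus affected it gave −0.44 to 2.80 for ATF3, −1.503 to 2.68 for GADD45B, −1.95 to 3.81 for FOS and −1.29 to 3.17 for MYC. The ends come from leaving out escaper 1 or 2. FOS in escaper minus normal was also below 0 without normal 2 (−0.04) or normal 3 (−0.46). The second probes reversed too, with −1.97 to 0.61 against normal and −0.40 to 2.19 against affected dogs for ATF3, and −1.42 to 2.27 and −0.84 to 2.85 for FOS.

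The number of probes past the threshold in affected minus normal (3) was 31 with processed signals or the value table, 9 in the dog's channel, 7 and 1 in Cy5 and Cy3 only, 2 under median centring, with no filter and with trended variance, 114 with a random slide effect, 313 with a random dog effect and 113 with only these groups fitted, and 0 to 113 without 1 dog. In escaper minus normal (0) it was 4, 94, 522 and 984 under processed signals, dog's channel, slide and dog blocks, 1 with no filter and 0 to 3920 without 1 dog. In escaper minus affected it was 0 except without escaper 1 (1755) or escaper 2 (2). No paired analysis was possible because replicate numbers follow the order of deposit and do not pair dogs. With 4, 4 and 2 dogs, intervals of several fold remain for every member.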

Other observations

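Because every ratio is taken against 1 normal individual, the 4 normal dogs also show how that individual stood among immediate early genes. EGR1 was at −3.80 to −1.54 in the normal dogs and CCN2, a matricellular growth factor, at −2.79 to −2.13, so both were below the reference in all 4, like GADD45B and MYC. DUSP1, at 0.68 to 1.27, and NR4A2, at 0.59 to 1.46, were above it in all 4. Over all tested probes, 32% had all 4 normal dogs below the reference and 26.2% had all 4 above it. Other listed immediate early genes were also on 1 side in all 4, among them IER3 and NFIL3 below the reference and DUSP6 and SGK1 above it. ATF3 and the first FOS probe were above the reference in 3 of 4, and the second FOS probe was above it in all 4. These genes were picked after their values were seen, and the same reference enters every ratio, so no test is attached.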
